A study of Homo sapiens with 16 samples.

Results

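The 35 genes described here are 17 enzymes of glycolysis, 4 regulators of glycolytic flux and lactate export, 12 genes commonly used as reporters of hypoxia, the hypoxia factor gene HIF1A and MXRA7. They were taken by symbol from the deposited table of 26229 genes, and each symbol matched 1 row. All 35 passed the filter on low counts, as did 14673 genes in all. MXRA7 encodes a protein with no established place in glycolysis or hypoxia and is described apart.

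RNA was sequenced from 16 cultures of human epidermal lines, A431 epidermoid carcinoma cells and HaCaT, an immortalised keratinocyte line, both grown in DMEM with FCS. Per line there was 1 library with control siRNA (siCTRL), 3 with YAP1 siRNA (siYAP), 1 with an empty expression vector and 3 with a vector for YAP1 S5A (YAP5SA), a constitutively active YAP1 mutant. siRNAs were transfected in 2 rounds, 24 hours apart, and those cultures were harvested 48 hours after the second round, while the labels give no time for the vectors. The vector cultures received no siRNA and the siRNA cultures no vector, so YAP5SA and siYAP libraries differ in delivery as well as in YAP, and each control group is a single library.

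The labels held up against YAP1 itself. In A431 cells YAP1 stood at 94.3 CPM (read counts scaled to library size) in the siCTRL library and at 5.34, 7.0 and 5.04 CPM in the siYAP libraries. In HaCaT cells it stood at 254 CPM with siCTRL and at 23.2, 21.6 and 21.8 CPM with siYAP. With YAP5SA it reached 1495, 3245 and 2940 CPM in A431 cells and 7549, 22255 and 10069 CPM in HaCaT cells, against 124 and 423 CPM with empty vector. Between 18115624 and 46791673 read pairs were assigned per library. The summed level of 9 keratinocyte markers was between 3001 and 7488 CPM in every library.

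Glycolysis splits glucose into pyruvate in the cytoplasm. Cells short of oxygen, and many tumour cells with oxygen, turn the pyruvate into lactate and export it. The gene HIF1A encodes the oxygen-labile subunit of hypoxia-inducible factor 1, which is hydroxylated by prolyl hydroxylases when oxygen is present and then destroyed, so its control is mostly at the protein and not at the RNA. When stable, the factor binds DNA at short core sites, ACGTG among them. It raises most glycolytic enzymes together with genes for pH control, blood vessel growth, mitophagy and oxygen sensing. YAP is a transcriptional co-activator of growth genes that acts with TEAD factors in basal keratinocytes.

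The most abundant members per kilobase of transcript were glycolytic enzymes. GAPDH, the dehydrogenase of the middle of the pathway, ranked highest of the 35 in 15 of the 16 libraries and LDHA, a lactate dehydrogenase subunit, in the HaCaT empty vector library. The 17 enzymes together took 7022 to 7374 CPM in the siRNA libraries of A431 cells and 11233 to 13560 CPM in its vector libraries. In HaCaT cells they took 4658 to 5689 CPM in the siRNA libraries and 14896 to 21846 CPM in the vector libraries. In both lines the ranges of the siRNA and vector libraries lay apart, with the control library of each kind on the side of its own delivery.

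**Figure D1:**
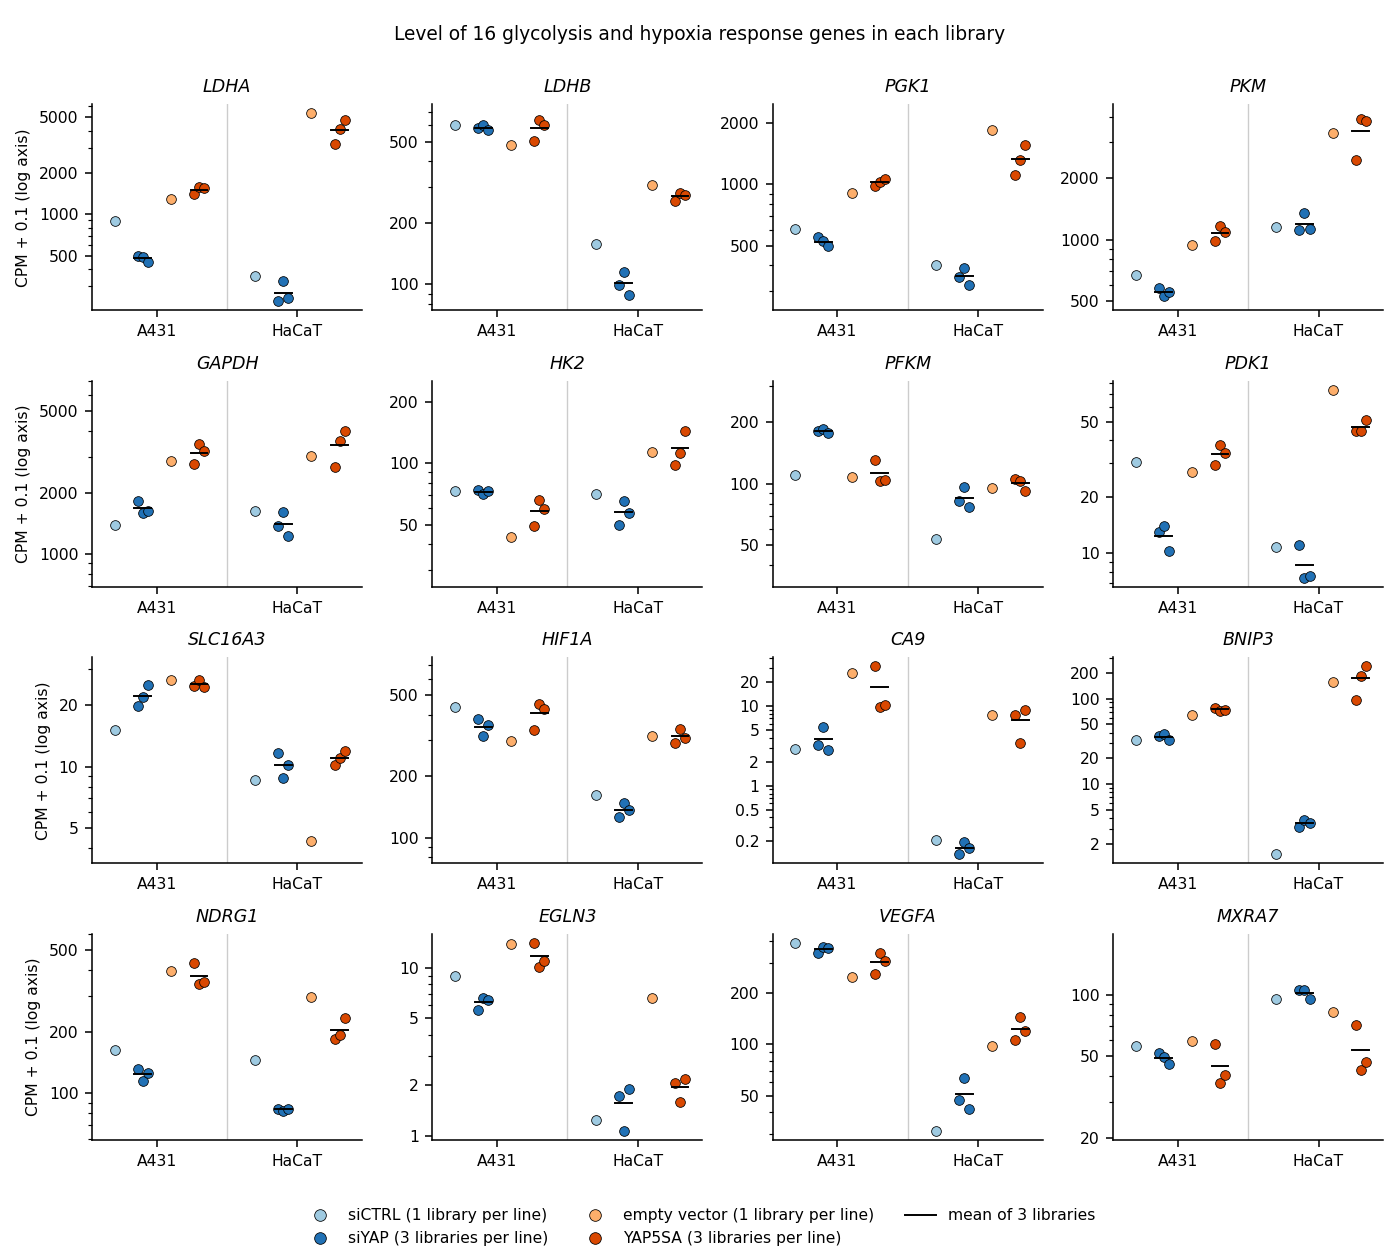
Level of 16 of the 35 genes in each of the 16 libraries, as CPM plus 0.1 on a log axis. Points are libraries, coloured by treatment, and the line marks the mean of 3 treated libraries. In HaCaT cells LDHA lay at 235 to 359 CPM in the siRNA libraries and at 3216 to 5344 CPM in the vector libraries, controls included.

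Knockdown of YAP1 asked whether these genes depend on YAP. Among the enzymes, PFKM was called higher in both lines (a gene was called at an edgeR adjusted p, Benjamini-Hochberg over all 14673 genes, under 0.05 and a mean log2 CPM above 1). PFKM, the muscle-type subunit of phosphofructokinase, rose from 111 CPM in the A431 siCTRL library to 181, 186 and 178 CPM after siYAP (log2 fold change 0.71 ± 0.17, SE; edgeR adjusted p = 0.026). In HaCaT cells it rose from 53.9 CPM to 82.2, 96.8 and 77.1 CPM, a log2 fold change of 0.66 ± 0.17 (edgeR adjusted p = 0.035). All 6 siYAP values lay above the siCTRL value of their line. The empty vector library, which differs in delivery, lay below the siYAP values in A431 cells but within their range in HaCaT cells. With it added as a 2nd control PFKM was called in neither line. The HaCaT call was also lost with no count filter and with each line fitted alone. Over the alternative fits the HaCaT log2 fold change ran from 0.196 to 0.731, so its size depends on the control and settings used. With any 1 A431 siYAP library left out the adjusted p was 0.0585 to 0.0642, and without HaCaT siYAP library 1 or 2 it was 0.062 and 0.071.

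Of the lactate dehydrogenase genes LDHA was called lower in A431 cells and LDHB in HaCaT cells. LDHA, whose subunit favours the reduction of pyruvate to lactate, was 887 CPM in the A431 siCTRL library and 502, 487 and 450 CPM after siYAP (log2 fold change -0.89 ± 0.21, edgeR adjusted p = 0.026). That call was lost when any 1 A431 siYAP library was left out, with adjusted p of 0.0531, 0.0584 and 0.0882. In HaCaT cells LDHA was 359 CPM and 235, 328 and 249 CPM, a log2 fold change of -0.41 that did not pass (adjusted p = 0.31). LDHB, the subunit typical of heart, was 158 CPM in HaCaT siCTRL and 99.7, 115 and 89.1 CPM in siYAP, a log2 fold change of -0.64 ± 0.16 (edgeR adjusted p = 0.027). Without HaCaT siYAP library 1 or 3 its adjusted p was 0.0726 and 0.0846. In A431 cells LDHB was 606 CPM against 581, 604 and 571 CPM and did not pass (adjusted p = 0.90). The difference between the lines in the effect of siYAP was not called for LDHA or LDHB.

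Of the flux regulators only PDK1 was called, in A431 cells. PDK1, the kinase that shuts pyruvate dehydrogenase, fell from 30.6 CPM with siCTRL to 12.8, 13.9 and 10.1 CPM after siYAP (log2 fold change -1.31 ± 0.23, edgeR adjusted p = 0.0068). The call held with each A431 siYAP library left out in turn. In HaCaT cells PDK1 was 10.8 CPM against 11, 7.34 and 7.47 CPM (adjusted p = 0.54), so 1 siYAP library lay above the control. The monocarboxylate carrier SLC16A3, which exports lactate, was 15.0 CPM against 19.7, 21.9 and 25.0 CPM in A431 cells (adjusted p = 0.13) and 8.52 CPM against 11.5, 8.70 and 10.0 CPM in HaCaT cells (adjusted p = 0.57).

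The other abundant enzymes were not called in either line. PGK1 was 606 CPM against 550, 526 and 496 CPM in A431 cells and 403 CPM against 352, 389 and 322 CPM in HaCaT cells, lower in all 6 siYAP libraries. GAPDH lay on opposite sides, at 1382 CPM against 1824, 1588 and 1630 CPM in A431 cells and at 1624 CPM against 1379, 1607 and 1221 CPM in HaCaT cells. PKM was 670 CPM against 581, 531 and 554 CPM in A431 cells and 1148 CPM against 1115, 1353 and 1124 CPM in HaCaT cells. HK2 was 73.2 CPM against 74.0, 70.3 and 73.1 CPM in A431 cells and 70.7 CPM against 49.5, 65.5 and 56.9 CPM in HaCaT cells. The adjusted p of these 4 genes ran from 0.46 to 0.99.

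Of the 12 hypoxia reporters 1 was called in 1 line. NDRG1, a stress and differentiation gene, fell from 145 CPM in HaCaT siCTRL to 83.9, 81.8 and 84.1 CPM in siYAP, a log2 fold change of -0.80 ± 0.16 (edgeR adjusted p = 0.011), and the call held with each siYAP library left out. In A431 cells NDRG1 was 163 CPM against 131, 114 and 126 CPM (adjusted p = 0.16). CA9, the cell-surface carbonic anhydrase widely used as a hypoxia marker, was 2.79 CPM against 3.11, 5.38 and 2.70 CPM in A431 cells and at 2 counts or 0.109 CPM against 0.0387, 0.0972 and 0.0661 CPM in HaCaT cells. VEGFA, the main angiogenic growth factor, was 391 CPM against 341, 371 and 364 CPM in A431 cells and 31.1 CPM against 47.1, 63.4 and 41.9 CPM in HaCaT cells (adjusted p = 0.79 and 0.11). HIF1A was 438 CPM against 378, 313 and 356 CPM in A431 cells and 161 CPM against 126, 147 and 136 CPM in HaCaT cells, lower in all 6 siYAP libraries without passing (adjusted p = 0.29 and 0.49).

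Counted over the members, siYAP gave 1 call higher and 2 lower in A431 cells, and 1 higher and 2 lower in HaCaT cells. Over all tested genes 1.81% were called higher and 3.78% lower in A431 cells, and 2.37% higher and 3.3% lower in HaCaT cells, so a few calls among 35 genes are near the share of all genes. The median log2 fold change of the members was 0.01 in A431 cells and 0.05 in HaCaT cells, beside 0.03 and 0.03 over all tested genes. The enzymes divided into 8 higher and 9 lower by sign in each line. With the empty vector library added as a 2nd control, 0 members were called in A431 cells and 15 in HaCaT cells, all lower. The share of all genes called with this pooled control is not given here, so whether 15 of 35 stands out cannot be read. The empty vector library differs from siYAP in delivery. In HaCaT cells 33 of the 35 members were higher in it than in siCTRL, beside 6925 of 14393 tested genes with a value. The siYAP counts thus depend on the control used, and with the pooled control delivery and YAP cannot be told apart.

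**Figure D2:**
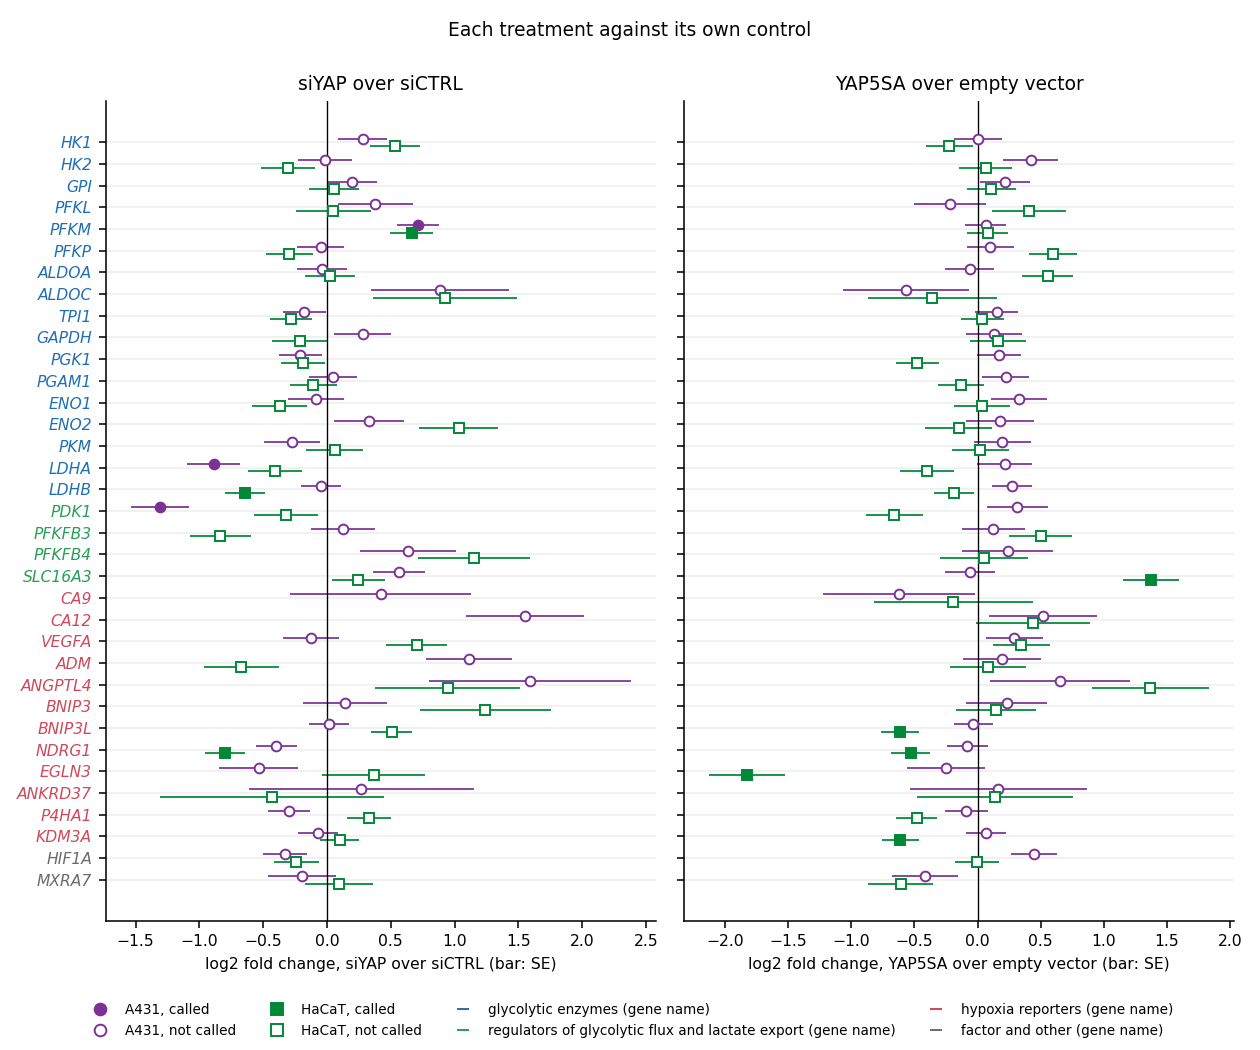
Log2 fold change with its SE of the 35 genes for siYAP over siCTRL (left) and YAP5SA over empty vector (right), in A431 (circles) and HaCaT cells (squares). Filled symbols were called, and CA9 and CA12 in the HaCaT siYAP comparison, with 2 and 0 counts in the control, are left out. Most genes lie near 0 in both panels, with 3 called in each line for siYAP, 0 in A431 and 5 in HaCaT cells for YAP5SA.

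Averaged over both lines, siYAP called 6 members. The falls of LDHA (-0.65 ± 0.15, edgeR adjusted p = 0.013), PDK1 (-0.82 ± 0.17, adjusted p = 0.0078) and NDRG1 (-0.60 ± 0.11, adjusted p = 0.0046), and the rise of PFKM (0.69 ± 0.12, adjusted p = 0.0027), held with each of the 6 siYAP libraries left out in turn. ENO2, the neuronal enolase, was 13 CPM against 14.5, 18.3 and 16.1 CPM in A431 cells and 3.82 CPM against 8.91, 7.97 and 6.61 CPM in HaCaT cells. Its log2 fold change of 0.68 ± 0.21 was called at an adjusted p of 0.047 and lost in 5 of the 6 fits without 1 siYAP library (all but that without HaCaT library 3), where it was 0.0569 to 0.0834. CA12, another membrane carbonic anhydrase, was 3.53 CPM against 9.88, 11.1 and 10.1 CPM in A431 cells, and 0 counts against 0.0774, 0.243 and 0.397 CPM in HaCaT cells. Its call (adjusted p = 0.027, and 0.0566 without HaCaT siYAP library 3) rests in part on a control at 0, so its fitted fold is not given. No fold is given for HaCaT cells alone, where the siYAP libraries held 2, 5 and 12 counts and library 1 lay below the 0.164 CPM that 3 counts make in the control. Over all tested genes 5.3% were called higher and 7.68% lower in this average.

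Active YAP was then set against the empty vector. In A431 cells no member was called by edgeR, nor by DESeq2, and 1, HIF1A, had an unadjusted p under 0.05, at 297 CPM with empty vector against 334, 452 and 428 CPM. The same comparison called 0% of all 14673 genes, so nothing particular to these genes can be read from it. YAP1 itself, at a log2 fold change of 4.36, was not called either (edgeR adjusted p = 0.197). Counts differed more between A431 YAP5SA library 1 and libraries 2 and 3 (chi-square per degree of freedom 72.9 and 67.4) than between 2 and 3 (6.40). What part this spread had in the lack of calls was not tested. By sign 25 of the 35 were higher, with a median log2 fold change of 0.17 beside 0.02 over all tested genes. The 14 enzymes higher and 3 lower by sign include GAPDH at 2853 CPM against 2749, 3438 and 3183 CPM, PKM, the pyruvate kinase of muscle and growing tissue, at 941 CPM against 984, 1168 and 1084 CPM, and HK2, the inducible hexokinase, at 43.4 CPM against 49.2, 65.8 and 59.3 CPM. For GAPDH the control lay within the YAP5SA range, for PKM and HK2 just below it.

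In HaCaT cells YAP5SA called 1 member higher and 4 lower, beside 6.99% of all tested genes called higher and 6.64% lower. SLC16A3 rose from 4.24 CPM with empty vector to 10.1, 10.9 and 11.9 CPM, a log2 fold change of 1.37 ± 0.22 (edgeR adjusted p = 0.0049). The same gene was 8.52 to 11.5 CPM in the 4 siRNA libraries of HaCaT cells, so the single empty vector library was the lowest of the 8. In A431 cells SLC16A3 was 26.4 CPM with empty vector against 24.7, 26.6 and 24.6 CPM with YAP5SA. The difference between the lines in this effect had an edgeR adjusted p of 0.053 and was not called, and was called with DESeq2 (adjusted p = 0.00097).

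The 4 members that fell in HaCaT cells are all hypoxia reporters. For each of the 4 the single empty vector library was the highest of the 8 HaCaT libraries, siRNA libraries included. EGLN3, a prolyl hydroxylase that marks HIF subunits for destruction and is itself induced by them, fell from 6.56 CPM with empty vector to 1.95, 1.49 and 2.09 CPM with YAP5SA, a log2 fold change of -1.83 ± 0.30 (edgeR adjusted p = 0.0052). BNIP3L, a mitophagy receptor, fell from 184 CPM to 116, 115 and 128 CPM (-0.62 ± 0.15, adjusted p = 0.020), and KDM3A, a histone demethylase, from 118 CPM to 75.5, 69.0 and 87.0 CPM (-0.61 ± 0.15, adjusted p = 0.020). NDRG1 fell from 294 CPM to 185, 193 and 233 CPM (-0.53 ± 0.16, adjusted p = 0.040), and lost its call without HaCaT YAP5SA library 1 or 2 (adjusted p = 0.0569 and 0.0632). All 12 YAP5SA values of these genes lay below the 1 empty vector value. When the siCTRL library, which had the other delivery, joined the control as a 2nd library, none of the 5 calls remained (edgeR adjusted p of 0.0765 to 0.845). The other 8 reporters were not called, among them CA9 at 7.55 CPM against 7.69, 3.39 and 8.72 CPM and VEGFA at 96.9 CPM against 106, 144 and 119 CPM.

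No other member was called with YAP5SA in HaCaT cells, though some lay below or above the empty vector library in all 3 YAP5SA libraries. PDK1 was 48.5 CPM per kilobase of transcript with empty vector against 29.3, 29.3 and 33.6 with YAP5SA. LDHA was 5344 CPM with empty vector and 3216, 4119 and 4819 CPM with YAP5SA (adjusted p = 0.21), and PGK1, which makes the first ATP of the pathway, was 1845 CPM against 1113, 1314 and 1552 CPM (-0.48, adjusted p = 0.071). HIF1A was 313 CPM against 290, 341 and 306 CPM. MXRA7 was 81.8 CPM against 71.3, 42.7 and 46.8 CPM in HaCaT cells and 59.5 CPM against 57.0, 36.7 and 40.2 CPM in A431 cells, lower in all 6. Averaged over the lines MXRA7 did not pass (-0.51 ± 0.18, edgeR adjusted p = 0.14). With the replicate number as a block it was called (-0.54 ± 0.13, edgeR adjusted p = 0.048). That block fits the same shift per number to the siYAP and YAP5SA libraries of both lines. In A431 cells same-numbered siYAP and YAP5SA libraries did not deviate together (correlations of 0.0030, -0.0034 and 0.015).

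Over both lines YAP5SA called SLC16A3 higher (0.66 ± 0.15, edgeR adjusted p = 0.043) and EGLN3 lower (-1.04 ± 0.21, adjusted p = 0.034), beside 1.38% and 0.661% of all tested genes. Both calls were lost without A431 YAP5SA library 2 or 3, and SLC16A3 also without HaCaT library 3 (adjusted p of 0.0743 to 0.0877). Tests of whether an effect differed between the lines called 0 members for siYAP and 0 for YAP5SA with edgeR, against 0.17% and 0.0886% of all genes, with 7 and 7 members at an unadjusted p under 0.05. DESeq2 called 1 and 2 members.

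The larger contrast lay between the vector and the siRNA libraries. In HaCaT cells 24 of the 35 members were higher in all 4 vector libraries, the empty vector among them, than in any of the 4 siRNA libraries, and 1, MXRA7, was lower. Over all tested genes 26.7% were higher without overlap and 28.4% lower. In A431 cells 17 members were higher without overlap and 1, HK2, was lower, beside 15.2% and 13.9% of all genes. Among the 12 reporters 8 were higher without overlap in each line, and among the 17 enzymes 9 in A431 and 12 in HaCaT cells.

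Tested with 3 libraries against 3, YAP5SA over siYAP called 17 members higher and 1 lower in A431 cells and 26 higher and 3 lower in HaCaT cells. Over all tested genes the shares called were 20% higher and 14.6% lower in A431 cells, and 31.5% higher and 28.5% lower in HaCaT cells. The median log2 fold change of the members was 0.46 in A431 cells and 1.38 in HaCaT cells, beside -0.03 and -0.06 over all genes. LDHA was 15.0-fold higher in HaCaT cells (log2 3.90 ± 0.17, edgeR adjusted p = 2.3e-09) and 3.13-fold higher in A431 cells (1.65 ± 0.16, adjusted p = 1.2e-05). PGK1 was 3.75-fold higher in HaCaT cells and 1.95-fold in A431 cells, at 322 to 389 CPM with siYAP and 1113 to 1552 CPM with YAP5SA in HaCaT, and at 496 to 550 CPM and 977 to 1065 CPM in A431. GAPDH (2.43-fold and 1.86-fold) and PKM (2.84-fold and 1.94-fold) were also called in both lines. HK2 was called only in HaCaT cells, at 49.5, 65.5 and 56.9 CPM with siYAP and 98.3, 111 and 144 CPM with YAP5SA.

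Of the 17 enzymes 15 were called higher in HaCaT cells and 9 in A431 cells. Only PFKM was called lower among them, in A431 cells (-0.69 ± 0.11, edgeR adjusted p = 5.0e-04), where siYAP gave 181, 186 and 178 CPM and YAP5SA 130, 103 and 105 CPM. Of the flux regulators PDK1 was called in both lines (5.39-fold in HaCaT and 2.72-fold in A431 cells), while SLC16A3 was called in neither. HIF1A was 126 to 147 CPM with siYAP and 290 to 341 CPM with YAP5SA in HaCaT cells, 2.29-fold higher (adjusted p = 2.3e-06), and did not pass in A431 cells (313 to 378 CPM against 334 to 452 CPM, adjusted p = 0.19).

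Among the reporters, BNIP3 and CA9 covered the widest range. BNIP3, a mitophagy receptor named here after its values were seen, was 3.06, 3.69 and 3.37 CPM with siYAP and 96.7, 183 and 237 CPM with YAP5SA in HaCaT cells, 51.1-fold higher (log2 5.67 ± 0.29, edgeR adjusted p = 5.2e-09). In A431 cells it was 36.1, 38.1 and 33.1 CPM and 76.7, 72.3 and 74.3 CPM, 2.08-fold higher. CA9 had 5 counts in the 3 HaCaT siYAP libraries and 760 in the YAP5SA libraries, a ratio of 103 with a 95% counting interval of 44.0 to 318. In A431 cells it was called at 4.56-fold, with 31.4, 9.56 and 10.4 CPM in the YAP5SA libraries. NDRG1 was called higher in both lines, 3.05-fold in A431 and 2.44-fold in HaCaT cells, and VEGFA in HaCaT cells alone by this test, 2.43-fold. BNIP3L and KDM3A, by contrast, were called lower in HaCaT cells (-0.37 ± 0.11 and -0.34 ± 0.11).

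Most members were also higher in the empty vector than in the siCTRL library, in both of which YAP was not targeted (YAP1 at 254 CPM with siCTRL and 423 CPM with empty vector in HaCaT cells, 94.3 and 124 CPM in A431 cells). The empty vector and siCTRL, 1 library each, are given as values with no test. In HaCaT cells LDHA was 14.9-fold higher with empty vector than with siCTRL, BNIP3 109-fold (155 against 1.42 CPM), PDK1 6.83-fold, PGK1 4.57-fold, VEGFA 3.11-fold and NDRG1 2.03-fold. CA9 had 237 counts against 2, a ratio of 69.1 with a 95% interval of 18.9 to 574 that covers counting error only. CA12 had 58 counts against 0, at least 11.3-fold over the floor of 3 counts. In all, 33 of the 35 members were higher with empty vector in HaCaT cells and 28 in A431 cells. Of the tested genes with a value, 6925 of 14393 were higher in HaCaT cells and 7222 of 14297 in A431 cells.

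At least 2-fold higher were 21 members in HaCaT cells and 7 in A431 cells, where 16.5% and 6.61% of all tested genes were. At least 2-fold lower was 1 member in HaCaT cells, SLC16A3 at 4.24 against 8.52 CPM, and 0 in A431 cells, beside 21.8% and 3.98% of all genes. In A431 cells the ratios were smaller, with LDHA 1.46-fold, PGK1 1.5-fold, NDRG1 2.45-fold and CA9 9.42-fold higher with empty vector (573 against 57 counts), and VEGFA at 247 CPM below the 391 CPM of siCTRL. Of the members called higher with YAP5SA over siYAP, the control pair, which are other libraries, moved the same way for 26 of 26 in HaCaT cells and 16 of 17 in A431 cells, beside 87.7% and 68.6% of all genes called higher. Of those called lower it did so for 1 of 3 in HaCaT cells and 1 of 1 in A431 cells, beside 85.8% and 73.4% of all genes called lower. Among those called higher PDK1 in A431 cells was the exception, at 27.0 CPM with empty vector and 30.6 CPM with siCTRL.

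**Figure D3:**
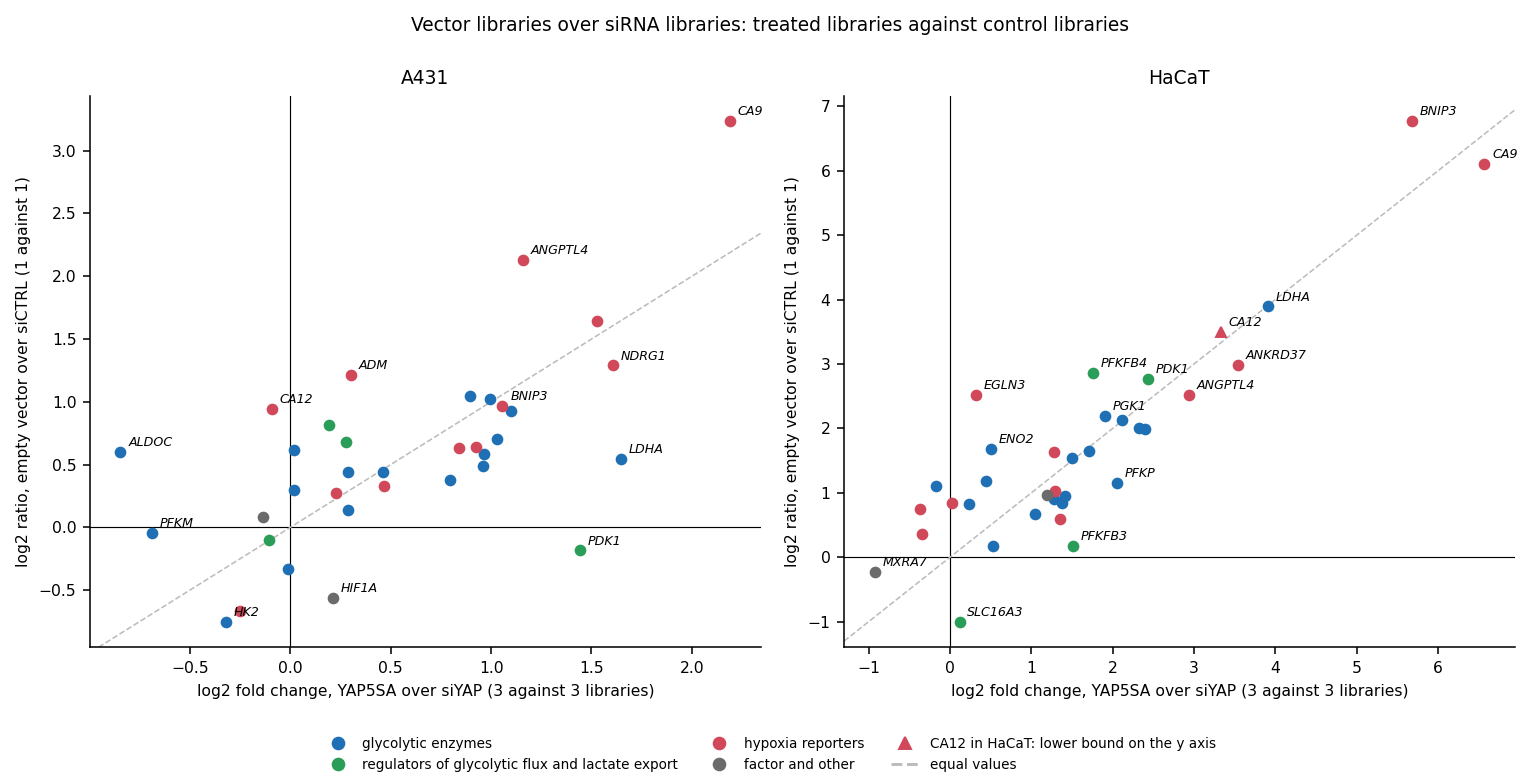
Log2 ratio of each of the 35 genes in the control libraries (y axis, empty vector over siCTRL, 1 against 1) against the log2 fold change in the treated libraries (x axis, YAP5SA over siYAP, 3 against 3), for A431 and HaCaT cells. Colours give the gene list and the dashed line equal values. In HaCaT cells LDHA, BNIP3 and CA9 lie at the upper right. LDHA and CA9 are near equal values, and BNIP3 lies above the line (5.67 on the x axis, 6.77 on the y axis). SLC16A3 and EGLN3 also lie off the line.

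With each treatment set against its own control, as (YAP5SA over empty vector) over (siYAP over siCTRL), a comparison added after the data were seen, the number of members called fell from 18 to 1 in A431 cells and from 29 to 4 in HaCaT cells. All tested genes called were 1.53% and 9%. PDK1 remained in A431 cells (1.63 ± 0.34, edgeR adjusted p = 0.041). In HaCaT cells PFKFB3, which makes the activator of phosphofructokinase, and SLC16A3 were higher (1.33 ± 0.35 and 1.13 ± 0.30), and BNIP3L and EGLN3 lower (-1.12 ± 0.22 and -2.19 ± 0.52). LDHA in HaCaT cells stood at 0.01 ± 0.31, and, like every value of this comparison, rests on 2 single control libraries. Delivery and YAP cannot be told apart in the comparison of YAP5SA with siYAP.

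Other measures moved along with delivery, and their part in these values was not tested. In HaCaT cells depth was 18115624 to 28729899 read pairs in the siRNA libraries and 34382933 to 39980642 in the vector libraries. The summed keratinocyte markers were 3001 to 4091 CPM in the HaCaT siRNA libraries and 4719 to 7488 CPM in the vector libraries. In A431 cells these ranges overlapped, at 4026 to 5123 CPM and 5021 to 5728 CPM. The markers did not all move the way of their sum in HaCaT cells. For YAP5SA over siYAP the largest called rises there were KRT5, SFN and KRT14 (log2 1.87, 1.77 and 1.44), while PKP1 and EGFR were called lower (-0.46 and -0.31). Of 11 common reference genes 7 were called higher and 1 lower for YAP5SA over siYAP in HaCaT cells, beside 31.5% and 28.5% of all tested genes. In A431 cells 4 were called higher and 0 lower, beside 20% and 14.6%. The median log2 fold change of the 11 was 0.59 in HaCaT and 0.24 in A431 cells. Summed over 7 fibroblast markers the level was 21.5 to 27.9 CPM in the HaCaT siRNA libraries and 0.669 to 1.90 CPM in the vector libraries, with 4 of 7 markers at 0 in the siCTRL library and 5 of 7, DCN among them, in the empty vector library. DCN led the sum in the siRNA libraries, at 11.3 to 14.2 CPM. Over 4 endothelial markers, led by CDH5 in the siRNA libraries, it was 59.2 CPM with siCTRL, 16 to 19.6 CPM with siYAP and 1.18 to 2.46 CPM in the vector libraries, so it was lower with siYAP as well. In A431 cells the fibroblast sums were 10.2 to 14.8 CPM and 2.45 to 5.46 CPM, and the endothelial sums 33.8 CPM with siCTRL, 18.3 to 22 CPM with siYAP and 3.88 to 5.92 CPM in the vector libraries. These are bulk libraries, in which fewer expressing cells and less RNA per cell cannot be told apart.

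The promoters of CA9, BNIP3, LDHA and PGK1 are shown. CA9, BNIP3 and LDHA are the 3 members with a promoter entry that differed most between YAP5SA and siYAP in HaCaT cells. All 4 genes were picked because they moved together with delivery and hold the core of the hypoxia response element. That both occur together in them was therefore fixed by the choice, and a role of the core in these values was not tested. Each run is 250 bases before to 50 bases after the RefSeq start on GRCh38.p14, 5′ to 3′ on the gene's strand, and capitals mark ACGTG or its reverse complement CACGT, which overlap in CACGTG. The windows are chr9:35673678-35673977 (plus strand) for CA9, chr10:131981874-131982173 (minus strand) for BNIP3, chr11:18394313-18394612 (plus strand) for LDHA and chrX:78103998-78104297 (plus strand) for PGK1. Where a gene had several windows, that with most matches is shown. Only ACGTG and CACGT were searched, so other forms of the core were not counted.
CA9: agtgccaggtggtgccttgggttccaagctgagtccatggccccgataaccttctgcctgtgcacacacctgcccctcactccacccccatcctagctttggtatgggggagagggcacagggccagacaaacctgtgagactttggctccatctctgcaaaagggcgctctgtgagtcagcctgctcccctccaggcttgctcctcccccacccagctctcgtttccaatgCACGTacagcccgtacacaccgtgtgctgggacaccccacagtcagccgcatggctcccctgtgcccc
BNIP3: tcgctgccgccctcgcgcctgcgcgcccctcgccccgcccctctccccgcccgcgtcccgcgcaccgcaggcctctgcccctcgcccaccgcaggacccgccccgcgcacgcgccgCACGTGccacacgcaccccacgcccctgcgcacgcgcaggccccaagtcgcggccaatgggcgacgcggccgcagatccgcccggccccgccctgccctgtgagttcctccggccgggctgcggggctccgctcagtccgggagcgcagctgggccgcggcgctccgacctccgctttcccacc
LDHA: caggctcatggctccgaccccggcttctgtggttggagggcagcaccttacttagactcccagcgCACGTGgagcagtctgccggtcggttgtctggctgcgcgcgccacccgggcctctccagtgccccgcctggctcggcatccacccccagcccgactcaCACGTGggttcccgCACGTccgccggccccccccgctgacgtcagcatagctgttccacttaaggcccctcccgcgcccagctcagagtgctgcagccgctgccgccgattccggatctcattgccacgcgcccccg
PGK1: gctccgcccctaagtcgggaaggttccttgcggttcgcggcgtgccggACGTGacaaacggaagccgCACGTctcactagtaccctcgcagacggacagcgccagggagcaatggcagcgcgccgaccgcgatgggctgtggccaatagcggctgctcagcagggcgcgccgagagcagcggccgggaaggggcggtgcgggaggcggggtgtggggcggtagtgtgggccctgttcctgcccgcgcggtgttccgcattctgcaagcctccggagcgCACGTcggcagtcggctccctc
Counting each strand separately, LDHA held 5 matches, PGK1 3, BNIP3 2 and CA9 1. Of the 32 members with a RefSeq promoter entry, 20 had a match in at least 1 of their windows (62.5%), beside 24.9% of all 27305 genes with an entry. The members are mostly known glycolysis and hypoxia genes, so this share describes the list and not these libraries. Members often have several start sites, and counted by window 24 of 62 held a match (38.7%), beside 21.4% of all 35116 windows. By list, 11 of 17 enzymes, 3 of 4 flux regulators and 5 of 9 reporters had one, as did MXRA7. Genes with a match did not all move the same way with delivery. HK2, with 2 and 4 matches in its windows, was lower without overlap in the A431 vector libraries and higher in those of HaCaT cells. MXRA7, with 1 match, was lower in the HaCaT vector libraries. Members without a match in these windows also moved with delivery in HaCaT cells, such as PKM, LDHB and HIF1A. NDRG1, VEGFA and BNIP3L had no entry.

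The mix of isozymes moved as well. Per kilobase of transcript, LDHA made up 49.4% of the summed LDHA and LDHB level in the A431 siCTRL library, 36.6%, 35% and 34.5% with siYAP, 64.3% with empty vector and 65.1%, 62.1% and 63.0% with YAP5SA. In HaCaT cells the share was 60.2% with siCTRL, 61.1%, 65.6% and 65.1% with siYAP, 92.1% with empty vector and 89.4%, 90.8% and 92.2% with YAP5SA. The share was thus lower in all 3 A431 siYAP libraries than in their control, and higher in all 3 of HaCaT cells. With 1 control library an exact permutation test cannot reach p < 0.05, so the shares are given without a test.

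Phosphofructokinase moved with siYAP in the same way in both lines. PFKM was 27.4% of the summed level of the 3 subunits in A431 siCTRL and 39.9%, 37.2% and 35.3% with siYAP, and 26.5% in HaCaT siCTRL and 39.0%, 42.4% and 36.6% with siYAP. With YAP5SA it was 29.7%, 21.0% and 22% in A431 cells (23.6% with empty vector), and 22.3%, 20.7% and 15.5% in HaCaT cells (25.0%). PFKP, the platelet-type subunit, was the largest share in 14 of the 16 libraries, PFKM in HaCaT siYAP libraries 1 and 2. ALDOA, the muscle-type aldolase, made up 64.2% to 92.3% of aldolase in A431 and 89.8% to 98.5% in HaCaT libraries, and ENO1, the common enolase, 98.3% to 99.7% of enolase in all 16.

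**Figure D4:**
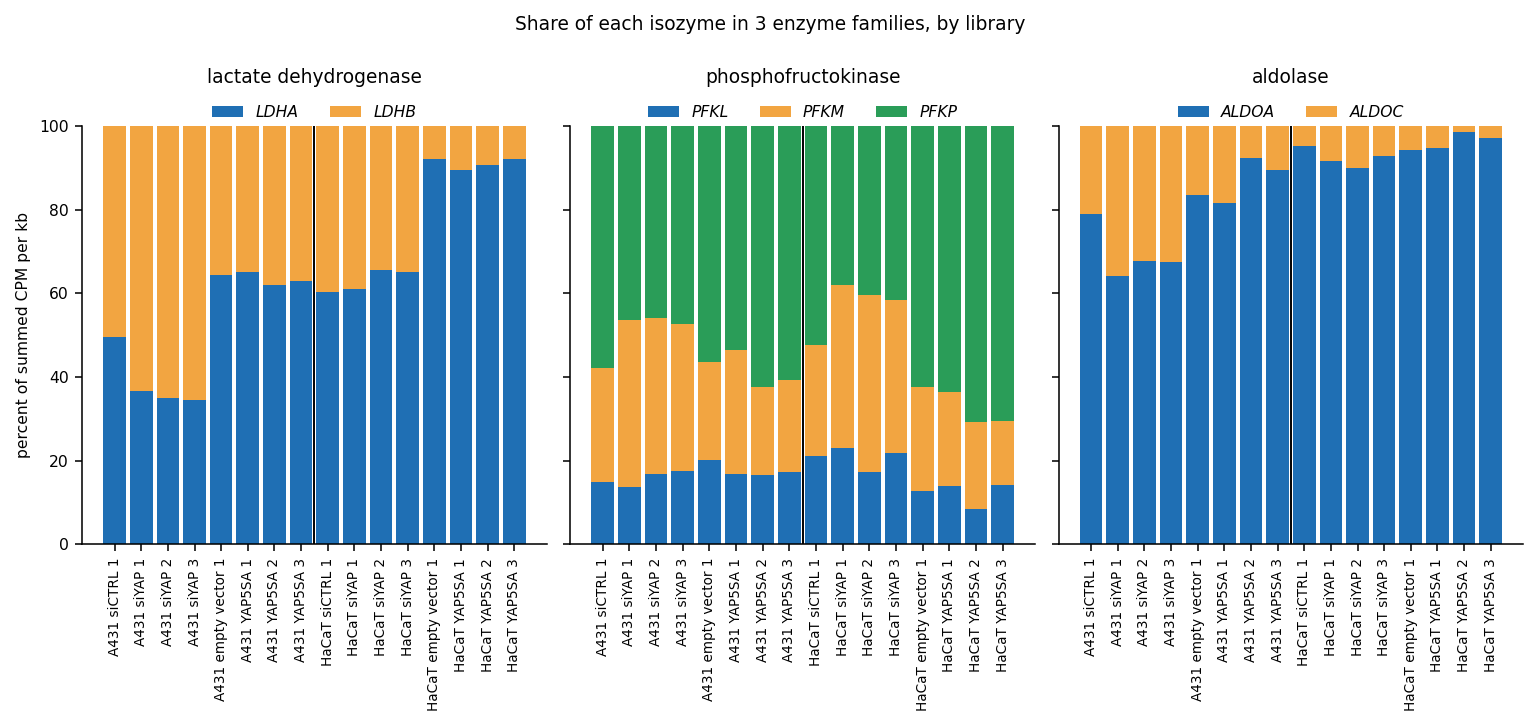
Share of each isozyme in the summed level (CPM per kilobase of transcript) of lactate dehydrogenase, phosphofructokinase and aldolase in the 16 libraries, 1 bar per library and the vertical line between the lines. The LDHA share is 34.5% to 36.6% in A431 siYAP libraries and 89.4% to 92.2% in HaCaT vector libraries.

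The lines differed under the same treatment. Under siYAP 24 members were called higher in A431 than in HaCaT cells and 6 lower, beside 31.7% and 26.9% of all tested genes. Under YAP5SA 10 were called higher and 14 lower, beside 26.7% and 23.5%. The median log2 difference of the members, A431 over HaCaT, was 0.80 with siYAP and -0.19 with YAP5SA, against 0.03 and 0.04 over all genes. LDHA, PDK1, BNIP3, GPI, PFKP, PGK1 and PFKFB3 were called in both and changed side, higher in A431 cells with siYAP and lower with YAP5SA.

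LDHA was 450 to 502 CPM in A431 and 235 to 328 CPM in HaCaT cells with siYAP (log2 0.83 ± 0.15, edgeR adjusted p = 3.6e-04), and 1402 to 1562 CPM and 3216 to 4819 CPM with YAP5SA (-1.43 ± 0.16, adjusted p = 5.3e-06). LDHB was higher in A431 cells under both, 5.79-fold and 2.16-fold. PKM was lower in A431 cells under both, at 531 to 581 CPM against 1115 to 1353 CPM with siYAP and 984 to 1168 CPM against 2462 to 3903 CPM with YAP5SA. GAPDH, often used to scale other genes, was called under neither (adjusted p = 0.15 and 0.52). Reads of GAPDH, PGK1, LDHA, ENO1, PKM and PGAM1 can also fit near-identical copies elsewhere in the genome, so their counts are less certain than those of other genes. HIF1A overlaps antisense genes, and the sources used here do not state that strand was counted, so reads of both could not be told apart.

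Among the reporters the lines kept their order under both treatments for most genes. VEGFA (7.08-fold and 2.45-fold), EGLN3 (4.13-fold and 6.28-fold) and NDRG1 (1.48-fold and 1.85-fold) were higher in A431 cells with siYAP and with YAP5SA, as was HIF1A (2.56-fold and 1.29-fold). CA9 was higher in A431 cells under both, where HaCaT siYAP libraries held 5 counts in all. KDM3A, BNIP3L and ANGPTL4, a secreted lipase inhibitor, were lower in A431 cells under both. MXRA7 was 45.7 to 51.8 CPM in A431 and 95.3 to 105 CPM in HaCaT cells with siYAP (-1.05 ± 0.19, edgeR adjusted p = 2.5e-04), and did not pass with YAP5SA (adjusted p = 0.25).

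**Figure D5:**
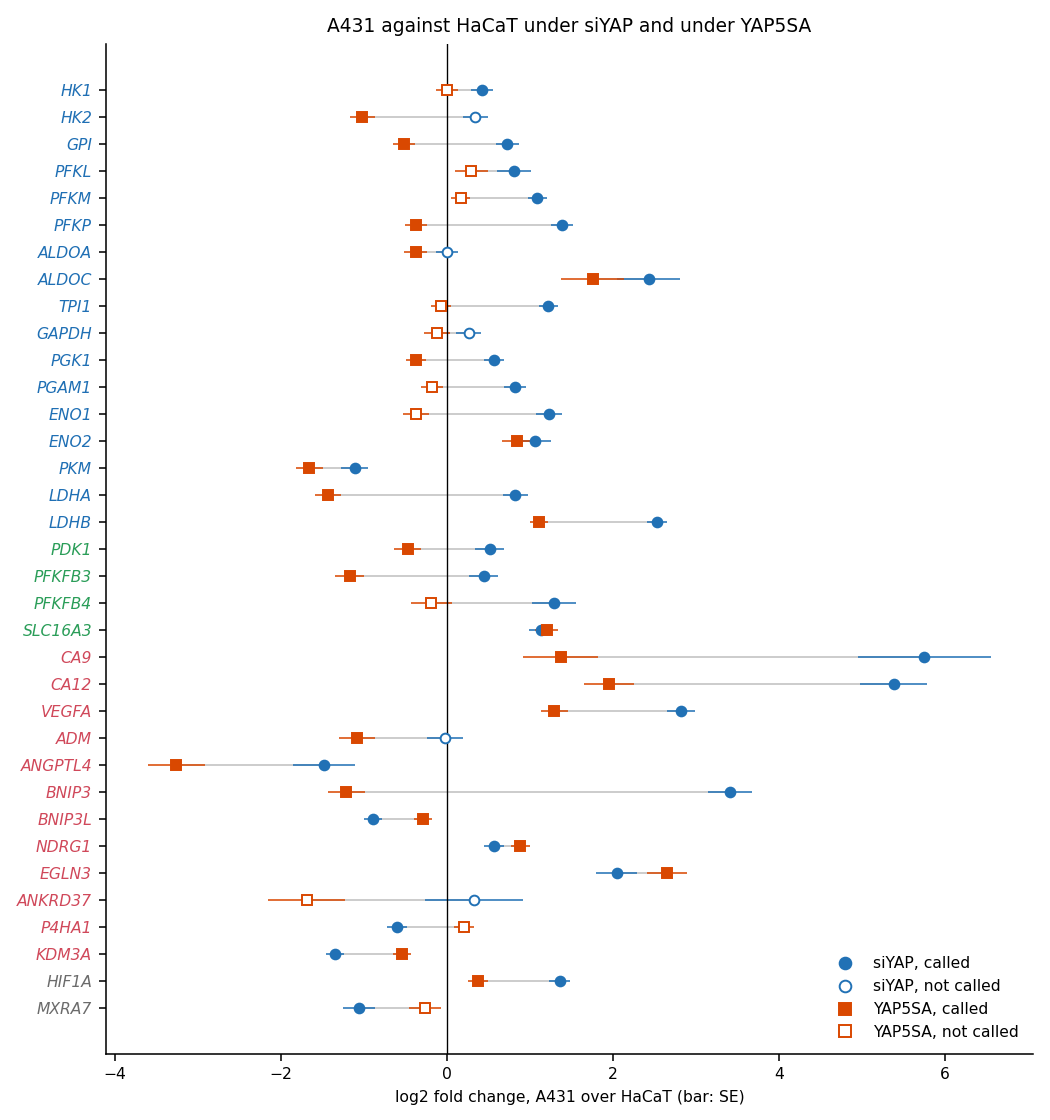
Log2 fold change of A431 over HaCaT cells with its SE for the 35 genes, with siYAP (blue circles) and with YAP5SA (orange squares), 3 libraries against 3 each. Filled symbols were called, 30 with siYAP and 24 with YAP5SA. For most enzymes the orange square lies to the left of the blue circle.

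The change of sides was tested as the difference between the lines in YAP5SA over siYAP, a comparison added after the data were seen. It called 24 members, beside 40.2% of all tested genes in either direction. The signed log2 fold change was higher in HaCaT cells for 20 of them and in A431 cells for 4. Among the 17 enzymes 10 differed, all with the higher signed value in HaCaT cells. For PFKM that came with a called fall in A431 cells (-0.69) and a value of 0.24 in HaCaT cells that did not pass. Among the 12 reporters the signed value was higher in HaCaT cells for 6 and in A431 cells for BNIP3L, P4HA1 and KDM3A. For MXRA7 it was -0.14 in A431 cells, which did not pass, and -0.93 in HaCaT cells, which did. Delivery and YAP differ together in this contrast too.

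Neighbouring genes of the same pathways were counted from lists. SLC2A1, the main glucose carrier of keratinocytes, was 133 CPM in A431 siCTRL, 119, 120 and 131 CPM with siYAP, 154 CPM with empty vector and 162, 203 and 185 CPM with YAP5SA. In HaCaT cells it was 114, then 109, 116 and 112, then 152, then 155, 193 and 217 CPM. It too was higher in every vector library than in any siRNA library of its line, 1.48-fold in A431 and 1.67-fold in HaCaT cells for YAP5SA over siYAP. VHL, the adaptor that leads hydroxylated HIF to destruction, was 58.8 to 65.4 CPM in the HaCaT siRNA libraries and 38.6 to 44.3 CPM in the vector libraries. In A431 cells its ranges overlapped, at 63.8 to 91.1 CPM and 60.6 to 73.1 CPM. EPAS1, which encodes the HIF-2 subunit, was 84.6 to 113 CPM and 45.9 to 64.1 CPM in HaCaT cells, and 115 to 128 CPM and 96.1 to 105 CPM in A431 cells.

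Of 32 other hypoxia-induced genes tested, siYAP called 1 higher and 1 lower in A431, 0 and 1 in HaCaT cells, and YAP5SA 0 in A431 and 1 higher and 3 lower in HaCaT cells. Over all tested genes siYAP called 1.81% higher and 3.78% lower in A431, and 2.37% and 3.3% in HaCaT cells. YAP5SA called 0% in A431, and 6.99% higher and 6.64% lower in HaCaT cells. PLOD2, a collagen lysyl hydroxylase, was the one that fell with siYAP in both lines (-2.48 ± 0.16 and -2.82 ± 0.18, edgeR adjusted p = 1.7e-05 and 1.1e-05). For YAP5SA over siYAP the list gave 7 higher and 5 lower in A431 cells, near the 20% and 14.6% of all tested genes. In HaCaT cells it gave 21 higher and 6 lower, beside 31.5% and 28.5%. Of 25 other glycolysis, gluconeogenesis and pyruvate genes, siYAP called 1 higher and 2 lower in A431 and 3 and 3 in HaCaT cells. The siYAP shares of all tested genes given above stand beside these counts and those of the next list too. SLC16A1, the monocarboxylate carrier that can bring lactate in or out, fell in both lines (-0.79 ± 0.13 and -0.96 ± 0.13), and PDHX, a component of the pyruvate dehydrogenase complex, rose in both (1.13 ± 0.16 and 1.61 ± 0.17). Of 13 HIF pathway regulators siYAP called 0 higher and 2 lower in A431 cells, EGLN1 and HIF1AN, which encode oxygen-dependent hydroxylases of HIF, and 0 in HaCaT cells with edgeR, where 2 had an unadjusted p under 0.05.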

How the data were processed

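RNA of 16 cultures was sequenced by the authors as paired reads, trimmed, assigned to RefSeq genes with RSEM and bowtie2, and deposited by the authors in the form of expected counts per gene; per the submitters' notes RSEM 1.2.11, edgeR and build hg19 were used. Of these expected counts 17.7% were not whole, and all were rounded. Genes with a mean above 10 counts (14673 of 26229) were fitted with edgeR 4.0.16 (R 4.3.3) in 1 model of 8 groups with TMM scaling and the quasi-likelihood F-test, leaving 8 residual degrees of freedom, with a biological coefficient of variation of 0.174. Genes were called at a Benjamini-Hochberg adjusted p under 0.05 over all tested genes and a mean log2 CPM above 1. CPM values are TMM-scaled, and standard errors are the absolute log2 fold change over the square root of F. The spread of each single control library was taken as that of the triplicates, which the study describes as biological.

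Groups and replicate numbers came from the labels. Depth ranged from 18115624 to 46791673 assigned read pairs, so 3 counts correspond to between 0.0630 and 0.164 CPM. Ratios of low counts carry exact 95% intervals, or a floor of 3 counts against a control at 0, which cover counting error only. Deviations of same-numbered YAP5SA libraries of the 2 lines correlated at 0.280, 0.116 and 0.101, and 4 of the 6 correlated best with their own number. No other pair of groups was above 0.1 for all 3 numbers. Whether same-numbered libraries belong together is not settled by these values, and the main fit used no block. Alternatives were DESeq2 1.42.0, other scaling, filters, tests and controls, the replicate block and each replicate left out. The fit was checked on simulated data.

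The members and lists were chosen with earlier results of these data known. Values per library are given for members called in an arm or in a difference between lines, and for HIF1A, CA9, VEGFA, LDHA, LDHB, PGK1, PKM, GAPDH, HK2, SLC16A3, NDRG1 and MXRA7. Other members are given by count or range, except BNIP3 and others named for YAP5SA over siYAP or between the lines, which were chosen after their values were seen. Of the other gene lists, called genes among the 3 largest rises or falls, SLC2A1, VHL and EPAS1 could be named. Transcript lengths came from GENCODE v29 and promoters from RefSeq on GRCh38.p14, another build than that of the counts.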

Additional observations from a re-analysis of the deposited data

Results flagged for a closer look

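For 24 genes the log2 fold change of YAP5SA over siYAP differed between the lines by the test of the difference itself (edgeR, adjusted p under 0.05 over all tested genes). Values are A431 minus HaCaT, so a negative value means a higher signed log2 fold change in HaCaT cells.

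Among the enzymes the difference was -1.36 for HK2, -1.25 for GPI, -0.93 for PFKM, -1.76 for PFKP, -1.30 for TPI1, -0.94 for PGK1, -1.01 for PGAM1, -1.60 for ENO1, -2.26 for LDHA and -1.42 for LDHB. Among the flux regulators it was -0.99 for PDK1, -1.61 for PFKFB3 and -1.48 for PFKFB4. Among the reporters it was -4.38 for CA9, -3.42 for CA12, -1.53 for VEGFA, -1.05 for ADM, -1.78 for ANGPTL4 and -4.62 for BNIP3. BNIP3L (0.60), P4HA1 (0.81), KDM3A (0.81) and MXRA7 (0.79) had the opposite sign, and HIF1A stood at -0.98. The CA9 and CA12 values rest on 5 and 19 counts in the HaCaT siYAP libraries.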

How the results depend on the processing

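The number of members called moved by over 1.5 times under several alternatives, and the cause was not tested. These counts are given without the share of all genes called under the same setting, so they describe stability only. For siYAP in A431 cells it was 3 as reported, 5 with DESeq2, 5 with the likelihood ratio test, 5 with each line fitted alone and 0 with both controls. For siYAP in HaCaT cells it was 3 as reported, 6 with DESeq2, 5 with the likelihood ratio test, 1 with each line fitted alone and 15 with both controls. For YAP5SA in HaCaT cells it was 5 as reported, 10 with DESeq2, 10 with the likelihood ratio test and 3 with each line fitted alone. Over both lines, both controls gave 14 for siYAP and 1 for YAP5SA. Both controls pool siCTRL and empty vector, which differ in delivery. The differences between lines gave 1 (siYAP) and 2 (YAP5SA) with DESeq2 and 1 and 2 with the likelihood ratio test, and the YAP5SA difference gave 1 with DESeq2-type size factors and 1 with over 10 counts in every library. Against own controls YAP5SA over siYAP gave 1 in A431 and 4 in HaCaT cells.

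With the replicate block HaCaT siYAP gave 5 calls. Same-numbered siYAP libraries of the lines correlated at 0.0362, 0.117 and 0.178, and each of the 6 correlated best with its own number. For the YAP5SA libraries 4 of 6 did so, and whether same-numbered libraries belong together is not settled. The block also lost ENO2 over both lines (adjusted p = 0.0527) and added MXRA7.

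Leaving out each replicate in turn, the calls ranged from 1 to 1 for siYAP in A431, 1 to 3 for siYAP in HaCaT, 0 to 0 for YAP5SA in A431, 4 to 8 for YAP5SA in HaCaT, 5 to 6 for siYAP and 0 to 6 for YAP5SA over both lines. The differences between lines ranged from 0 to 0 (siYAP) and 0 to 1 (YAP5SA), and YAP5SA over siYAP from 16 to 20 in A431 and 26 to 28 in HaCaT cells.

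Of 2276 recomputed values of named genes, 2158 kept direction and side of the threshold, 69 lost and 43 gained a call, and 6 reversed. These were CA12 for siYAP over both lines with both controls (-0.50), and, against own controls, CA9 (-1.04) and GAPDH (-0.15) in A431 and VEGFA (-0.36), PGK1 (-0.29) and PKM (-0.038) in HaCaT cells. With 1 control library per arm, small differences could not be resolved at this replication, and CA9 and CA12 in HaCaT siRNA libraries lay near the floor of 3 counts.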
